A study of Homo sapiens with 12 samples.

Results

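The non-coding snoRNA host genes are long non-coding RNA genes whose introns carry small nucleolar RNAs (snoRNAs) or small Cajal body RNAs (scaRNAs). They were taken from a gene count table as every row named SNHG followed by a number, plus GAS5, ZFAS1 and EPB41L4A-AS1. The rule found 28 members among 57353 rows, and 24 of them passed the low-count filter and were tested together with all 14955 genes that passed. SNHG15, SNHG18, SNHG27 and SNHG28 did not pass and had between 0 and 4 counts in any library. RefSeq listed all 28 as long non-coding RNAs, and 27 spanned an annotated small RNA.

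The libraries came from HepG2, an established human liver cancer cell line, labelled as wild type. Cells received 10 µM sorafenib, a kinase inhibitor given for liver cancer, or only its solvent DMSO (vehicle), for 12 h. All cultures received cycloheximide before lysis, which holds ribosomes on the RNA, and each lysate was spun through a sucrose gradient into a polysome pool and a light pool. The light pool joined the low-molecular complexes, the free subunits and the single ribosomes. The 4 groups were sorafenib polysome, vehicle polysome, sorafenib light and vehicle light, with 3 libraries each, and libraries of a treatment that share a number are the pools of 1 culture.

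In the known biology of this gene class, splicing releases the introns, from which the small RNAs are cut, and leaves a spliced exon RNA that can leave the nucleus. C/D box snoRNAs guide ribose methylation of ribosomal RNA, H/ACA box snoRNAs guide pseudouridylation, and scaRNAs guide the same changes in spliceosomal RNAs. The exon RNAs hold no long conserved reading frame, yet ribosomes can load on their short ones, and several (GAS5 and ZFAS1 among them) are degraded by nonsense-mediated decay, a pathway that acts on RNAs while they are translated. Many of these genes start with the terminal oligopyrimidine (TOP) motif of ribosomal protein genes, a C followed by pyrimidines, through which growth signals control loading on polysomes.

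The bases around the annotated start show which members carry such a run. Each sequence gives 30 bases before the start and 30 from it, from RefSeq promoter windows of GRCh38.p14, and capitals mark an unbroken run that begins with C at the first base and goes on with at least 4 C or T bases. The windows lie at chr6:85678704-85678763 (SNHG5, minus strand), chr20:49278612-49278671 (ZFAS1, plus strand), chr16:2155329-2155388 (SNHG19, minus strand), chr1:28581844-28581903 (SNHG12, minus strand) and chr5:139274071-139274130 (SNHG4, plus strand). GAS5 (chr1:173869016-173869075, minus strand), SNHG1 (chr11:62855856-62855915, minus strand) and EPB41L4A-AS1 (chr5:112160496-112160555, plus strand) are set beside them as members with no such run at that base.
SNHG5: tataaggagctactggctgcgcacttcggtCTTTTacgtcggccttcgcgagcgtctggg
ZFAS1: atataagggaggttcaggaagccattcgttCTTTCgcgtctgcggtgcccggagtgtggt
SNHG19: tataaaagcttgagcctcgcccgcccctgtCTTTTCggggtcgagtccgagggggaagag
SNHG12: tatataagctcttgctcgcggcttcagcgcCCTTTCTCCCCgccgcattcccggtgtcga
SNHG4: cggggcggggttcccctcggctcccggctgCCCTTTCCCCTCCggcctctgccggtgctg
GAS5: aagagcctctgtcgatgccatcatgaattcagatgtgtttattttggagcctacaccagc
SNHG1: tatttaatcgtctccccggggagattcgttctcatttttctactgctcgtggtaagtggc
EPB41L4A-AS1: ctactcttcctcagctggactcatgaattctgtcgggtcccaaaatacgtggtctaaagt

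The run was present at the annotated start of 5 of the 21 tested members with a promoter window (23.81%), which were SNHG4, SNHG5, SNHG12, SNHG19 and ZFAS1, against 47 of 78 ribosomal protein genes (60.26%) and 4.07% of all 35116 promoter windows. With the run allowed to begin within 10 bases of the start on the transcript strand, 13 of the 21 members held it (61.9%), against 33.47% of all windows. A match describes letters at an annotated start, and the start used in HepG2 was not measured.

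Counts that carried a gene name summed to between 511065 and 13336689 per library. The smallest was sorafenib light library 2 and the next smallest sorafenib light library 1, with 2060384. Sorafenib light library 2 was also the reference library of the TMM scaling used below. Levels below are counts scaled to library size with TMM factors (CPM), which are not divided by transcript length, so they compare libraries but not genes. Marker sums alone were scaled by library totals, without TMM factors. The hepatocyte and HepG2 markers, 10 genes, summed to between 4725 and 37510 CPM. The 4 leukocyte markers reached at most 41.1 CPM, 3 endothelial markers 21.5 CPM and 4 fibroblast or stellate cell markers 25.4 CPM. None of these markers was at 0 in every library.

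The summed counts of the 28 members took 0.240%, 0.211% and 0.205% of the sorafenib polysome libraries, against 0.288%, 0.212% and 0.207% of the vehicle polysome libraries. In the light fraction they took 0.424%, 0.316% and 0.496% with sorafenib, against 0.896%, 0.730% and 0.731% with vehicle. The polysome groups overlapped, whereas each sorafenib light library lay below each vehicle light library. The mean was 0.219% ± 0.0191 on sorafenib polysomes and 0.235% ± 0.0455 on vehicle polysomes (SD, n = 3 each). It was 0.412% ± 0.0906 in sorafenib light libraries and 0.786% ± 0.0952 in vehicle light libraries (SD, n = 3 each). All these values are shares of a library, so a lower value cannot be told apart from a gain of other RNAs in the same fraction, nor fewer cells with a transcript from less RNA per cell.

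**Figure D1:**
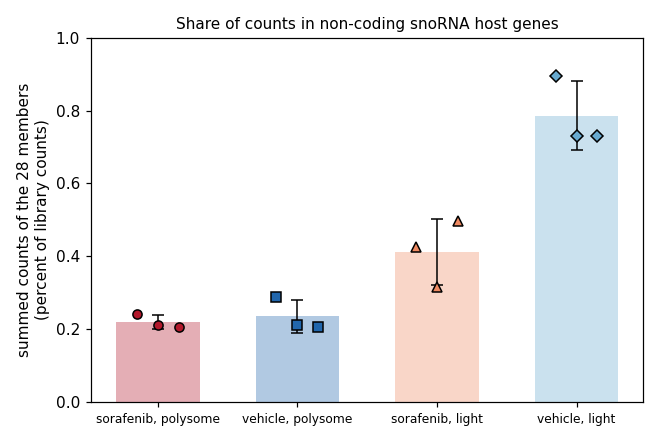
Summed counts of the 28 non-coding snoRNA host genes as a percent of the counts of each library (y axis), by group; points are libraries, bars are means and error bars are SD over 3 libraries. The sorafenib light libraries lie between 0.316% and 0.496%, all below the vehicle light libraries at 0.730% and above, while the polysome groups overlap.

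**Figure D2:**
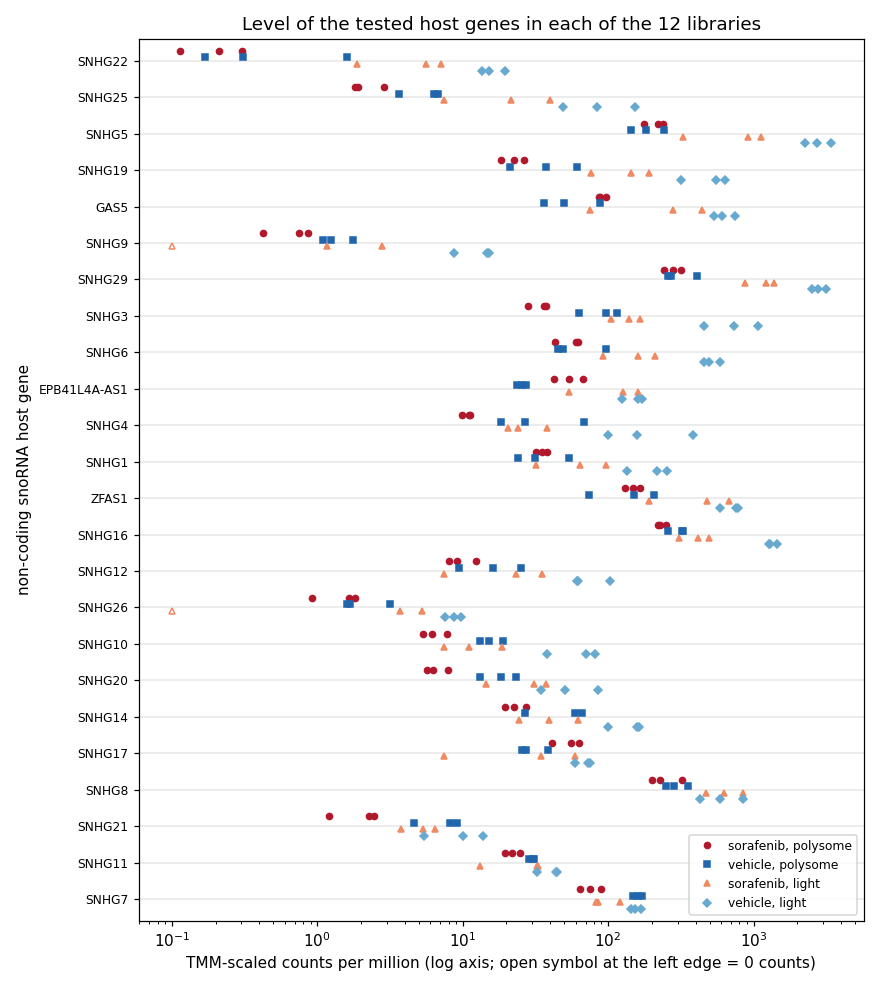
TMM-scaled CPM (x axis, log scale) of the 24 tested host genes in each of the 12 libraries, coloured by group; each point is 1 library and an open symbol at the left edge is a count of 0. Vehicle light libraries all lie right of the vehicle polysome libraries for 22 members, and sorafenib light libraries all lie left of the vehicle light libraries for 18.

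On polysomes, 2 of the 24 tested members rose with sorafenib, 8 fell and 14 did not pass the test (edgeR quasi-likelihood test, Benjamini-Hochberg adjusted p under 0.05 over all tested genes). Among all tested genes 20.9% rose and 28.8% fell in this comparison, so the members' counts, 2 and 8 of 24, were of the same order as the background. The members' median log2 change was -0.65, beside -0.26 over all genes, and 15 of 24 lay below that overall median. The sorafenib and vehicle libraries did not overlap for 12 members, 2 of them higher and 10 lower with sorafenib, where 60.2% of all tested genes did not overlap. Scaling within each fraction gave 3917 genes higher and 3143 lower over the whole table, in place of 3130 and 4306, and left the members' counts at 2 and 8.

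Members were grouped by the small RNAs that lie within their RefSeq extent. Whether these small classes differed from each other was not tested. The scaRNA hosts were SNHG10, SNHG20, SNHG21 and SNHG22. The polysome level of 3 of these 4 fell with sorafenib, beside 28.8% of all tested genes. SNHG20, which spans SCARNA16, had 7.92, 5.73 and 6.28 CPM in the sorafenib polysome libraries, against 23.2, 18.4 and 13.2 CPM in the vehicle polysome libraries. The groups did not overlap, and the log2 change was -1.46 ± 0.34 (SE, edgeR adjusted p = 0.0017). SNHG10, the host of SCARNA13, had 6.19, 7.85 and 5.37 CPM with sorafenib, against 15.1, 13.1 and 19 CPM with vehicle, a log2 change of -1.29 ± 0.29 (edgeR adjusted p = 0.00151). SNHG21, the host of SCARNA15 and a weakly counted gene, had 1.21, 2.46 and 2.26 CPM with sorafenib, against 9.09, 8.15 and 4.65 CPM with vehicle, and its log2 change of -1.86 ± 0.38 was the largest fall of any tested member (edgeR adjusted p = 5.83e-04). SNHG22, the host of SCARNA17, had under 2 CPM in every polysome library, and its change of -1.35 did not pass (95% interval -2.88 to 0.19).

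Among the 8 tested members that span H/ACA but no C/D box snoRNAs, 3 fell on polysomes and 2 rose. These counts were near the shares of all tested genes, 28.8% and 20.9%. SNHG3, the host of SNORA73A and SNORA73B, had 37.7, 36.0 and 28.1 CPM in the sorafenib polysome libraries, against 97.1, 115 and 63.3 CPM in the vehicle polysome libraries. Each sorafenib library was below each vehicle library, with a log2 change of -1.43 ± 0.31 (edgeR adjusted p = 8.6e-04). SNHG7, the host of SNORA17A and SNORA17B, had 89.8, 75.5 and 64.0 CPM with sorafenib, against 172, 148 and 160.4 CPM with vehicle, and fell by 1.07 ± 0.22 on the log2 scale (edgeR adjusted p = 5.8e-04). Its vehicle libraries stood close together and well above those of sorafenib. SNHG4, which spans SNORA74A, had 11.2, 9.86 and 11.1 CPM with sorafenib, against 67.8, 26.9 and 18.4 CPM with vehicle, and its log2 change of -1.83 ± 0.45 moved to -1.10 without vehicle polysome library 1 (edgeR adjusted p = 0.00244 with it and 0.0351 without it).

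EPB41L4A-AS1, the host of SNORA13, had 67.2, 53.9 and 42.6 CPM in the sorafenib polysome libraries, against 27.3, 25.5 and 23.5 CPM in the vehicle polysome libraries. The groups did not overlap, and the level rose by 1.10 ± 0.29 on the log2 scale (edgeR adjusted p = 0.00379). SNHG17, which spans 4 SNORA71 genes, had 63.4, 41.4 and 55.5 CPM with sorafenib, against 38.4, 25.5 and 27.0 CPM with vehicle, and rose by 0.81 ± 0.33 (edgeR adjusted p = 0.0488). This second call stood close to the threshold: it was lost without vehicle polysome library 2 or 3, or sorafenib polysome library 1 or 3 (edgeR adjusted p between 0.129 and 0.189). The other H/ACA hosts, SNHG8, SNHG9 and SNHG11, did not pass.

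Of the 10 tested members that span C/D but no H/ACA box snoRNAs by that rule, 2 fell on polysomes and 8 did not pass. The share of all tested genes that fell there was 28.8%, so 2 of 10 was not above it. SNHG14, the long transcript that carries the SNORD115 and SNORD116 clusters of the imprinted SNRPN region, had 22.6, 19.6 and 27.1 CPM with sorafenib, against 66.3, 59.2 and 27.0 CPM with vehicle. Vehicle polysome library 3 fell inside the sorafenib range, and the log2 change was -1.13 ± 0.32 (edgeR adjusted p = 0.00698). SNHG25 spans SNORD104, and the H/ACA gene SNORA50C, also listed as its snoRNA, starts just past its RefSeq end. It had 2.87, 1.83 and 1.91 CPM with sorafenib, against 6.39, 6.73 and 3.63 CPM with vehicle, a log2 change of -1.33 ± 0.44 (edgeR adjusted p = 0.0186). Leaving out vehicle polysome library 1 or 2, vehicle light library 2, sorafenib polysome library 2 or 3, or sorafenib light library 3 put its edgeR adjusted p between 0.0552 and 0.0652.

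The best counted C/D hosts did not pass the test on polysomes. SNHG5, the host of SNORD50A and SNORD50B, had 239.7, 219 and 176 CPM in the sorafenib polysome libraries, against 242, 143 and 183 CPM in the vehicle polysome libraries. These groups overlapped, and the 95% interval of its log2 change of 0.16 ran from -0.53 to 0.85 (edgeR adjusted p = 0.726). SNHG29, the host of SNORD49A, SNORD49B and SNORD65, had 278, 316 and 240.4 CPM with sorafenib, against 409.6, 259 and 271 CPM with vehicle (log2 change -0.17, 95% interval -0.71 to 0.37). SNHG16, the host of the SNORD1 genes, had 248, 226 and 222 CPM with sorafenib, against 328, 321 and 259 CPM with vehicle, and although the libraries did not overlap its log2 change of -0.38 did not pass (edgeR adjusted p = 0.197). ZFAS1, the host of the SNORD12 genes, had 167, 148 and 129.7 CPM with sorafenib, against 206, 74.2 and 151 CPM with vehicle (log2 change 0.04, 95% interval -0.68 to 0.77).

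GAS5, the growth arrest gene that spans 10 C/D box snoRNAs and 1 H/ACA box snoRNA, had 97.0, 88.2 and 86.5 CPM in the sorafenib polysome libraries, against 87.8, 36.5 and 49.4 CPM in the vehicle polysome libraries. The groups overlapped through vehicle polysome library 1, and the log2 change of 0.64 ± 0.41 did not pass (edgeR adjusted p = 0.197). Without sorafenib light library 2 the value was 0.88 and passed (edgeR adjusted p = 0.0142). That library was the TMM reference, and without it the median over all genes on polysomes was -0.03 in place of -0.26. SNHG12, which also spans both classes, did not pass with a log2 change of -0.80 (edgeR adjusted p = 0.063), and neither did SNHG19, the host of SNORD60, at -0.82 (edgeR adjusted p = 0.0647). Both passed when 1 vehicle polysome library was left out, library 2 for SNHG12 (-1.07, edgeR adjusted p = 0.021) and library 3 for SNHG19 (-1.13, edgeR adjusted p = 0.0158).

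In the light fraction 17 of the 24 tested members fell with sorafenib, none rose and 7 did not pass (edgeR adjusted p under 0.05). At an unadjusted p under 0.05 none rose either, nor with DESeq2 or limma-voom. Over all tested genes 17.7% fell and 11.7% rose, so 17 of 24 was several times the background share. The members' median log2 change was -1.60, beside -0.12 over all genes, and 23 of 24 members lay below that overall median. Their sorafenib and vehicle libraries did not overlap for 18 members, all lower with sorafenib, where 39.6% of all tested genes did not overlap. Without both shallow sorafenib light libraries, which leaves 1 library in that group and assumes that it varies like the others, 11 members fell and the median was -1.14. Scaling by library totals gave 3650 genes higher and 1316 lower in place of 1752 and 2648, and 14 members that still fell, with GAS5, SNHG7 and SNHG20 no longer passing.

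Of the C/D hosts, 8 of 10 tested fell in the light fraction, beside 17.7% of all tested genes. SNHG5 had 909, 329 and 1133 CPM in the sorafenib light libraries, against 3382, 2243 and 2749 CPM in the vehicle light libraries. Every sorafenib library was below the lowest vehicle library, and the log2 change was -1.81 ± 0.36 (edgeR adjusted p = 0.00121). SNHG16 had 413, 305 and 491 CPM with sorafenib, against 1458, 1267 and 1306 CPM with vehicle, a log2 change of -1.73 ± 0.25 (edgeR adjusted p = 9.77e-05). SNHG29 had 1214, 872 and 1380.2 CPM with sorafenib, against 3135, 2519.8 and 2776 CPM with vehicle, a log2 change of -1.28 ± 0.28 (edgeR adjusted p = 0.00223). SNHG1, which spans SNORD22 and SNORD25 to SNORD31, had 64.0, 31.8 and 96.5 CPM with sorafenib, against 252, 217 and 136 CPM with vehicle, and fell by 1.57 ± 0.34 on the log2 scale (edgeR adjusted p = 0.002). In each of these genes the 2 groups stood apart. SNHG6, SNHG14, SNHG19 and SNHG25 also fell, by 1.71, 1.88, 1.83 and 1.93 on the log2 scale, and ZFAS1 (-0.64) and SNHG26 (-1.21) did not pass.

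Of the H/ACA hosts, 4 of 8 tested fell in the light fraction, beside 17.7% of all tested genes. SNHG3 had 139, 105 and 166 CPM in the sorafenib light libraries, against 1076, 732 and 458 CPM in the vehicle light libraries, the member with the smallest p in this comparison. Its highest sorafenib library was well below its lowest vehicle library, with a log2 change of -2.45 ± 0.32 (edgeR adjusted p = 4.44e-05). SNHG4 had 24.1, 20.6 and 38.3 CPM with sorafenib, against 380.3, 159 and 99.8 CPM with vehicle, and its log2 change of -2.86 ± 0.48 moved to -2.09 without vehicle light library 1 (edgeR adjusted p = 3.38e-04 with it and 0.00257 without it). SNHG9, the host of SNORA78, had 1.17, 0 and 2.80 CPM with sorafenib, against 15.1, 14.6 and 8.71 CPM with vehicle (log2 change -2.69 ± 0.50, or -3.86 without sorafenib light library 3). SNHG8, the host of SNORA24, had 840.2, 627 and 474 CPM with sorafenib, against 586, 426 and 842 CPM with vehicle, with the smallest change of any tested member here (log2 change 0.07, 95% interval -0.51 to 0.65).

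The fall of SNHG7 in the light fraction was small. It had 85.1, 82.3 and 119.8 CPM with sorafenib, against 169, 143 and 153 CPM with vehicle, a log2 change of -0.67 ± 0.22 (edgeR adjusted p = 0.0294). It was lost without any 1 vehicle light library or without sorafenib light library 1 or 2, with edgeR adjusted p between 0.101 and 0.224. GAS5 had 279, 74.8 and 442 CPM with sorafenib, against 741, 606 and 534 CPM with vehicle. The log2 change of -1.21 ± 0.41 passed (edgeR adjusted p = 0.0326), but not without vehicle light library 1, 2 or 3 or sorafenib light library 1 or 2 (edgeR adjusted p between 0.0559 and 0.141). SNHG12 fell by 1.63 ± 0.38 on the log2 scale (edgeR adjusted p = 0.00332).

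Among the scaRNA hosts SNHG10 had 18.8, 7.48 and 11.0 CPM in the sorafenib light libraries, against 80.7, 70.1 and 37.8 CPM in the vehicle light libraries. The 2 groups were separate, and the log2 change was -2.27 ± 0.33 (edgeR adjusted p = 1.18e-04). SNHG22 fell by 1.98 ± 0.55 and SNHG20 by 1.18 ± 0.36 on the log2 scale (edgeR adjusted p = 0.0112 and 0.0205). Both calls rested on single libraries: SNHG22 did not pass without vehicle light library 2 (edgeR adjusted p = 0.0531) or sorafenib light library 3 (0.097), nor SNHG20 without vehicle light library 1 (0.139) or sorafenib light library 3 (0.126). SNHG21 did not pass, with 6.46, 3.74 and 5.37 CPM with sorafenib against 13.8, 10.1 and 5.39 CPM with vehicle.

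**Figure D3:**
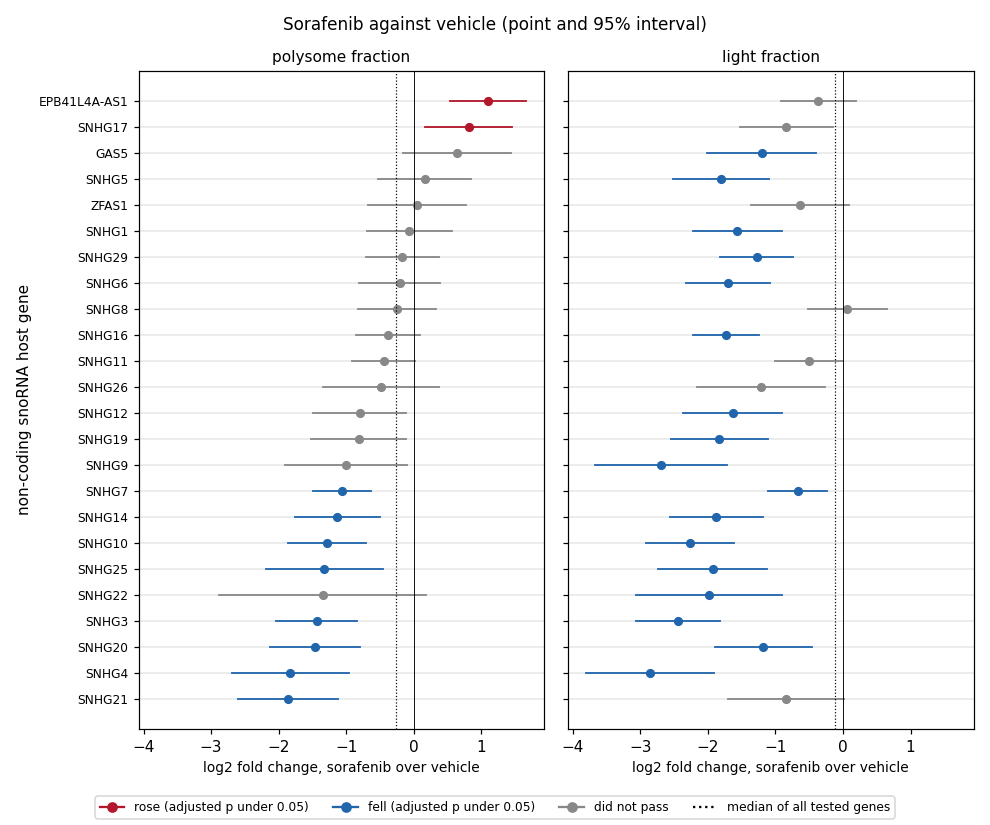
Log2 fold change of sorafenib over vehicle (x axis) with its 95% interval for each tested host gene, on polysomes (left) and in the light fraction (right); red points rose, blue points fell and grey points did not pass the test, and the dotted line is the median of all tested genes. On polysomes 2 members rose and 8 fell, and in the light fraction 17 fell and none rose.

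Set side by side, 7 members fell in both fractions with sorafenib: SNHG3, SNHG4, SNHG7, SNHG10, SNHG14, SNHG20 and SNHG25. A further 10 fell in the light fraction and did not pass on polysomes, which were GAS5, SNHG1, SNHG5, SNHG6, SNHG9, SNHG12, SNHG16, SNHG19, SNHG22 and SNHG29. SNHG21 fell on polysomes alone by the same threshold, EPB41L4A-AS1 and SNHG17 rose there without passing in the light fraction, and SNHG8, SNHG11, SNHG26 and ZFAS1 passed in neither. A call in 1 fraction and none in the other does not show a difference, which the interaction term of the same fit tested directly.

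By that term, 8 of the 24 members had a higher change on polysomes than in the light fraction, and none a lower one (edgeR adjusted p under 0.05). At an unadjusted p under 0.05 the counts were 11 and 0, and DESeq2 and limma-voom also found none lower. Over all tested genes 12.8% were higher by this term and 10.7% lower. The members' median interaction was 1.00 on the log2 scale, beside 0.02 over all genes, and 20 of 24 lay above that overall median. The 8 were 5 C/D hosts (SNHG1, SNHG5, SNHG6, SNHG16 and SNHG29), 2 H/ACA hosts (EPB41L4A-AS1 and SNHG17) and GAS5. SNHG5 had an interaction of 1.97 ± 0.50 (edgeR adjusted p = 0.00796), SNHG16 one of 1.35 ± 0.34 (0.0081) and EPB41L4A-AS1 one of 1.47 ± 0.40 (0.0125). These 3 calls passed without each of the 12 libraries in turn, and each of the other 5 was lost without at least 1 of them. The scaRNA hosts had a median interaction of 0.18, and none of the 4 passed.

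Both members that rose on polysomes had values of opposite sign in the fractions. EPB41L4A-AS1 had 126, 54.2 and 160.0 CPM in the sorafenib light libraries, against 171, 125 and 161 CPM in the vehicle light libraries, a log2 change of -0.37 that did not pass, beside its rise of 1.10 on polysomes. SNHG17 had 34.6, 7.48 and 58.9 CPM in the sorafenib light libraries, against 72.9, 59.2 and 74.9 CPM in the vehicle light libraries, a log2 change of -0.84 (edgeR adjusted p = 0.0769), and an interaction of 1.65 ± 0.48 (0.0178). The light groups of EPB41L4A-AS1 overlapped and those of SNHG17 nearly met, while the polysome groups of both stood apart. The interactions of SNHG1 (1.50), SNHG6 (1.50), GAS5 (1.85) and SNHG29 (1.11) had edgeR adjusted p between 0.0177 and 0.0446.

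The count of interactions rested on few libraries. It was 4 without vehicle polysome library 2 or sorafenib polysome library 1, and 3 without both shallow sorafenib light libraries, where SNHG5, SNHG16 and EPB41L4A-AS1 still passed. Without sorafenib light library 3 the interactions of SNHG5, GAS5, SNHG1, SNHG17 and EPB41L4A-AS1 were larger, between 2.07 and 2.69. With the culture as a replicate block 9 members passed, SNHG4 and SNHG19 added and SNHG29 lost (edgeR adjusted p = 0.0537). Library totals gave 1210 genes higher and 2390 lower by this term, in place of 1921 and 1607, and 6 members higher.

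**Figure D4:**
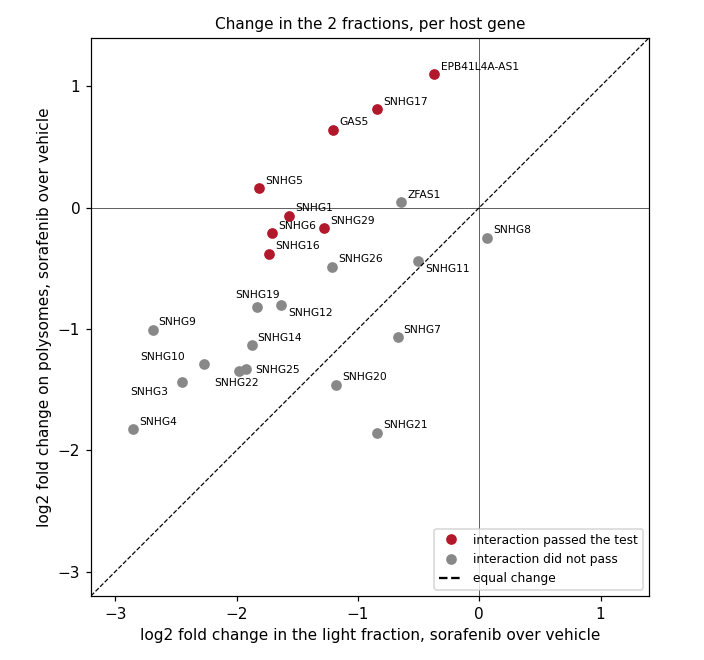
Log2 fold change of sorafenib over vehicle on polysomes (y axis) against that in the light fraction (x axis), 1 point per tested host gene; red points passed the interaction test and the dashed line marks equal change. The 8 red points all lie above the line, and SNHG7, SNHG8, SNHG20 and SNHG21 lie below it.

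Across the 24 members the changes in the 2 fractions had a Pearson correlation of 0.512 and a Spearman correlation of 0.488, beside 0.359 and 0.357 over all 14955 genes. These describe points that share cultures and libraries, and 18 members lay below 0 in both fractions and none above 0 in both.

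How far each host RNA was loaded on polysomes was read from the polysome pool against the light pool of the same treatment. In sorafenib cells 18 of 24 members were lower on polysomes than in the light fraction, none was higher and 6 did not pass (edgeR adjusted p under 0.05). In vehicle cells 21 were lower, none was higher and 3 did not pass. None was higher at an unadjusted p under 0.05 or with DESeq2 or limma-voom, in either treatment. Among all tested genes 12.4% were lower and 13.4% higher in sorafenib cells, and 17.8% lower and 18.3% higher in vehicle cells. The pools did not overlap for 13 members in sorafenib cells and for 22 in vehicle cells, all lower on polysomes, where 38.4% and 48.4% of all tested genes did not overlap. The members' median log2 difference was -1.46 in sorafenib cells and -2.38 in vehicle cells, beside -0.004 and -0.06 over all genes, and 23 of 24 lay below the overall median in each.

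These differences are relative to the scaling, since the pools hold unlike RNA. Scaling within each fraction moved the median of all genes to 0.79 in sorafenib cells and 0.58 in vehicle cells, and library totals moved it to 0.60 and 0.82. With TMM within each fraction 7 members were lower and 1, SNHG17, higher in sorafenib cells, and 19 were lower and 1, SNHG7, higher in vehicle cells, while 7041 genes were higher and 740 lower in sorafenib cells and 5932 and 1129 in vehicle cells. With library totals 11 and 17 members were lower in sorafenib and vehicle cells, beside 5587 genes higher and 914 lower in sorafenib cells and 7314 and 876 in vehicle cells. The splits over all genes with the scaling used elsewhere were 2002 and 1855 in sorafenib cells and 2742 and 2659 in vehicle cells. Under both, 23 of 24 members again lay below the overall median in each treatment. In sorafenib cells the count also fell to 9 without sorafenib light library 1 and to 10 without sorafenib light library 3.

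SNHG5 lay lower on polysomes than in the light pool in both treatments. Its polysome libraries had 239.7, 219 and 176 CPM in sorafenib cells against 909, 329 and 1133 CPM in their light libraries, a log2 difference of -1.91 ± 0.36 (edgeR adjusted p = 9.57e-04) that moved to -1.25 without sorafenib light library 3 (0.0149). In vehicle cells it had 242, 143 and 183 CPM on polysomes against 3382, 2243 and 2749 CPM in the light pool, a log2 difference of -3.88 ± 0.39 (edgeR adjusted p = 9.1e-07). The polysome levels of both treatments were alike in range, and the light levels were not. Culture by culture, log2 of polysome over light was -1.92, -0.59 and -2.68 with sorafenib and -3.80, -3.97 and -3.91 with vehicle, so the 3 sorafenib cultures were spread widely and the vehicle cultures stood close together.

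GAS5 differed by -1.59 ± 0.41 in sorafenib cells (edgeR adjusted p = 0.00868) and by -3.43 ± 0.44 in vehicle cells (edgeR adjusted p = 1.08e-05). In sorafenib cells its call was lost without sorafenib light library 1 (edgeR adjusted p = 0.0546) or 3 (0.19). SNHG29 differed by -2.06 ± 0.28 in sorafenib cells and by -3.17 ± 0.30 in vehicle cells, with edgeR adjusted p of 6.6e-05 and 3.9e-07. SNHG25 had 11.4-fold lower polysome levels in sorafenib cells and 17.3-fold lower in vehicle cells, and its log2 difference in sorafenib cells moved to -2.84 without sorafenib light library 1, beside -3.51. SNHG22, the scaRNA host with the lowest polysome counts, was 18.8-fold lower on polysomes in sorafenib cells and 29.2-fold lower in vehicle cells. Both folds rest on few reads: SNHG22 had 4, 2 and 3 counts in the sorafenib polysome libraries and 4, 9 and 2 in the vehicle polysome libraries. Its log2 difference moved to -3.41 without sorafenib light library 1, beside -4.23, and to -5.98 without vehicle polysome library 2, beside -4.87.

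SNHG7 stood at the other end. Its polysome libraries had 89.8, 75.5 and 64.0 CPM in sorafenib cells against 85.1, 82.3 and 119.8 CPM in their light libraries, and 172, 148 and 160.4 CPM in vehicle cells against 169, 143 and 153 CPM in their light libraries. The pools overlapped in both treatments, and the log2 differences of -0.35 (95% interval -0.78 to 0.09) and 0.05 (-0.37 to 0.47) did not pass. SNHG11, the host of SNORA60 and SNORA71E, did not pass either (-0.37 in sorafenib cells and -0.43 in vehicle cells). SNHG17 was lower on polysomes in vehicle cells (-1.18 ± 0.34, edgeR adjusted p = 0.00971, or 0.0529 without vehicle polysome library 2), and its value of 0.47 in sorafenib cells did not pass, but was 1.42 and passed as higher on polysomes without sorafenib light library 3 (edgeR adjusted p = 0.00822). SNHG8 was lower on polysomes by 1.38 on the log2 scale in sorafenib cells and by 1.06 in vehicle cells. The call in sorafenib cells was lost without sorafenib light library 1 (edgeR adjusted p = 0.0541) and without both shallow libraries (0.139). The call in vehicle cells was lost without vehicle light library 3 (edgeR adjusted p = 0.0816) or vehicle polysome library 3 (0.051).

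**Figure D5:**
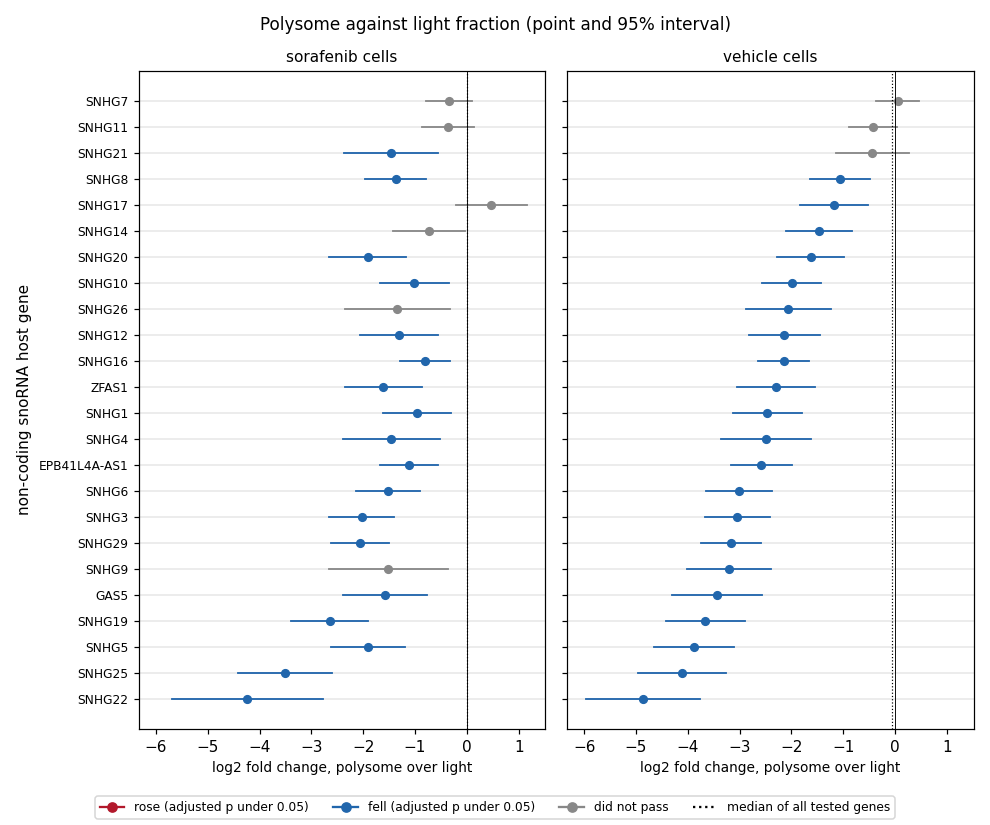
Log2 fold change of polysome over light fraction (x axis) with its 95% interval for each tested host gene, in sorafenib cells (left) and vehicle cells (right); blue points were lower on polysomes by the test, grey points did not pass, and the dotted line is the median of all tested genes. In vehicle cells 21 members lie to the left and passed, in sorafenib cells 18 did, and SNHG7, SNHG11 and SNHG17 lie nearest to 0 in sorafenib cells.

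The members with the TOP-like run at the annotated start did not share 1 pattern. On polysomes SNHG4 fell with sorafenib (-1.83), and SNHG5 (0.16), ZFAS1 (0.04), SNHG12 (-0.80) and SNHG19 (-0.82) did not pass. In the light fraction 4 of these 5 fell and ZFAS1 did not pass, and in vehicle cells all 5 were lower on polysomes. Of all 24 tested members 21 were lower on polysomes in vehicle cells. GAS5, SNHG1 and EPB41L4A-AS1, printed above as members with no such run, were among them. The 3 that did not pass, SNHG7, SNHG11 and SNHG21, had no such run at the annotated start either. Whether the run bears on these values was not tested.

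Related gene lists give the scale of these values. Beside them, 20.9% of all tested genes rose and 28.8% fell on polysomes, and 11.7% rose and 17.7% fell in the light fraction. In vehicle cells 17.8% of all tested genes were lower on polysomes. Of 79 cytosolic ribosomal protein genes, 31 fell on polysomes with sorafenib and 2 rose (median log2 change -0.66), and 55 fell in the light fraction with none rising (-1.06). In vehicle cells 77 of the 79 were lower on polysomes, with a median log2 difference of -2.37. Of 25 translation factor and other TOP mRNAs, 9 rose and 1 fell on polysomes (median 0.46), and 16 fell in the light fraction (median -1.11). Elongation factor EEF2, itself the host of a C/D box snoRNA, rose by 1.43 on polysomes and fell by 1.23 in the light fraction (edgeR adjusted p = 6.8e-04 and 0.00455). By the interaction term 19 of these 25 mRNAs and 10 of the 79 ribosomal protein genes were higher, beside 12.8% of all tested genes. The count of ribosomal protein genes was thus near the share of all genes.

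Protein-coding snoRNA hosts other than ribosomal protein genes, 20 tested, had 9 that rose and 2 that fell on polysomes, and 2 that rose and 11 that fell in the light fraction. The shares of all tested genes that rose and fell were 20.9% and 28.8% on polysomes, and 11.7% and 17.7% in the light fraction. By the interaction term 15 of these 20 were higher and 1 lower (median 1.50), beside 12.8% and 10.7% of all tested genes. In vehicle cells 15 of the 20 were lower on polysomes and 1 was higher, beside 17.8% and 18.3%. Both patterns were thus not particular to the non-coding hosts. NCL, which encodes nucleolin and hosts SNORD20, rose by 2.30 on polysomes (edgeR adjusted p = 7.53e-06), and HSPA8, a chaperone gene that hosts SNORD14 genes, fell by 1.37 there (edgeR adjusted p = 4.79e-04). Of 2 non-coding hosts with other names in the table, DANCR fell by 1.76 on polysomes and by 1.54 in the light fraction, and C6orf48 had 1.01 and -1.03, which did not pass, with an interaction of 2.04 (edgeR adjusted p = 0.0173). A list of cytoplasmic long non-coding RNAs, 5 tested with DANCR again among them, had 4 that fell on polysomes and 4 that fell in the light fraction, DANCR included in both counts. Another was NORAD, which fell by 1.996 and 3.63 on the log2 scale.

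Because several host RNAs are known decay substrates, the decay machinery was listed as well. Of 18 nonsense-mediated decay factors, 8 rose and 5 fell on polysomes with sorafenib. UPF1, the central helicase of the pathway, rose by 1.77 there (edgeR adjusted p = 1.45e-05), and its -0.66 in the light fraction did not pass (0.0869). The 5 that fell on polysomes were SMG5 (-1.43), PNRC2 (-1.42), MAGOHB (-0.88), RBM8A (-0.79) and MAGOH (-0.65). A link between these factors and the host RNAs was not tested. Of 15 other known decay substrates, 7 rose and 1 fell on polysomes, among them the stress genes GADD45B (3.51) and ATF3 (2.87). In the light fraction 4 of these 15 substrates rose, GADD45B (2.68) and ATF3 (2.34) among them, and 2 fell, with a median of 0.35, and of the 18 factors 1 rose and 5 fell. Of 14 genes for snoRNP proteins, 6 rose and 4 fell on polysomes and 1 rose and 3 fell in the light fraction, with NOLC1, a nucleolar chaperone of snoRNPs, at 2.13 and NHP2, an H/ACA core protein, at -1.70 on polysomes. Among all tested genes 20.9% rose and 28.8% fell on polysomes, and 11.7% rose and 17.7% fell in the light fraction. The 5 of 18 factors and 4 of 14 snoRNP genes that fell on polysomes were near the share of all genes.

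The small RNAs themselves were barely counted. RefSeq placed 146 small RNA genes inside the 28 members, 128 of them had a row of their own, and these rows summed to 857 counts over the 3 sorafenib polysome libraries, 724 over the vehicle polysome libraries, 907 over the sorafenib light libraries and 6510 over the vehicle light libraries. Only 17 rows reached 100 counts over all 12 libraries. SNORD49B, inside SNHG29, had 468 counts in the sorafenib polysome, 193 in the vehicle polysome, 248 in the sorafenib light and 1681 in the vehicle light libraries. SNORD104, inside SNHG25, had 78, 99, 143 and 2089 counts in the same order of groups. These counts are not scaled for depth, and whether they are mature snoRNAs or reads of unspliced host RNA was not tested.

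Several members overlap another gene, and the sources used here do not say whether strand was used in counting. SNHG3 overlaps RCC1, SNHG4 overlaps MATR3, SNHG12 overlaps TRNAU1AP, SNHG14 overlaps SNRPN and UBE3A, GAS5 overlaps ZBTB37, SNHG29 overlaps LRRC75A, SNHG7 overlaps DIPK1B, SNHG20 overlaps SEC14L1, SNHG21 overlaps FSD2, SNHG22 overlaps MYO5B, SNHG6 overlaps MCMDC2 and EPB41L4A-AS1 overlaps EPB41L4A. For these members reads of the partner cannot be told apart from their own, while SNHG1, SNHG5, SNHG8, SNHG9, SNHG16, SNHG19 and ZFAS1 overlap no other annotated gene than small RNAs. No library of unfractionated RNA was used here, so a change on polysomes cannot be told apart from a change of the RNA in the whole cell.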

How the data were processed

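Per the labels, RNA of the light pool and the polysome pool of HepG2 cultures was sequenced, 12 libraries in all. The authors deposited whole-number counts per gene, not normalized. The submitters' processing notes name the build GRCh38.p12, while the labels name no aligner, counter, annotation or strand setting, which stay unstated. The members and the gene lists were chosen with earlier results of these data known. Counts were tested with edgeR 4.0.16 (R 4.3.3) in 1 fit over all 12 libraries and 4 groups, with filterByExpr, TMM scaling and the quasi-likelihood test, and p-values were adjusted over all 14955 genes (Benjamini-Hochberg, under 0.05). SE is the size of the log2 change over the square root of F, and intervals use 1.96 SE. Fraction comparisons were also fitted with the culture as a block.

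Libraries of a treatment with the same number are 2 pools of 1 culture. Their deviations correlated between -0.0715 and 0.328 over all genes. Over the tested members the correlations were 0.541, 0.319 and 0.453 in the vehicle cultures, and 0.327, -0.328 and -0.473 in the sorafenib cultures. The number shared between treatments is only a name. Nothing in the labels says how the cultures of a group were kept apart, so p-values measure the spread between these libraries. Counts per library ranged from 511065 to 13336689, and intervals cover counting error and library spread only. All tested members were named. Values per library were given mostly where the mean log2 CPM was at least 5 or the change was among the largest. They were not given for each such member in each group, and SNHG6 and SNHG19 were described by their changes only. Alternatives were other scalings (TMM within each fraction, library totals, RLE, upper quartile, 11 other TMM references), other filters, DESeq2 1.42.0, limma 3.58.1 voom, fits on the compared libraries only, thinning, blocks and leaving out libraries or cultures. The edgeR fit was tested on simulated data. Promoter windows were matched by symbol for 24 of 28 members, with none for SNHG6, SNHG9, SNHG15 and SNHG25. The label of sorafenib polysome library 3 carries the same index as vehicle light library 1, which was left as labelled. Figures used matplotlib 3.10.9.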

Additional observations from a re-analysis of the deposited data

Results flagged for a closer look

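The interaction term, which sets the sorafenib effect on polysomes against that in the light fraction, passed for 8 members, and each is listed because its effect differed between the fractions (edgeR adjusted p under 0.05). The values on the log2 scale were 1.97 for SNHG5, 1.35 for SNHG16, 1.47 for EPB41L4A-AS1, 1.50 for SNHG6, 1.65 for SNHG17, 1.50 for SNHG1, 1.85 for GAS5 and 1.11 for SNHG29. In all 8 the sorafenib effect was higher on polysomes than in the light fraction. Each of these RNAs was lower on polysomes in vehicle cells. The same vehicle libraries enter the interaction, so that difference is a part of it and not a separate result. SNHG5, SNHG16 and EPB41L4A-AS1 passed without each of the 12 libraries in turn. Sorafenib light libraries 1 and 2, the shallowest of all, enter each of these values. With every library thinned to 511065 counts 7 of the 8 passed, all but SNHG17 (0.96, edgeR adjusted p = 0.244), and without both shallow libraries 3 did.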

How the results depend on the processing

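Over 42 alternatives no called value changed its sign, and of 4901 values of single genes 4585 kept their side of the threshold, 265 lost a call and 51 gained one. On polysomes the members that rose numbered 1 in place of 2 with at least 10 counts in every library or with libraries thinned to 511065 counts, and those that fell numbered 5 in place of 8 with no filter or with at least 10 counts in every library. Leaving out libraries or cultures gave 1 to 3 that rose and 5 to 9 that fell. In the light fraction 11 in place of 17 fell without both shallow sorafenib light libraries, and 11 to 17 over the left-out libraries. For polysome against light in sorafenib cells, members lower numbered 7 with TMM within each fraction, 11 with library totals and 10 with no filter in place of 18, and 9 to 20 over the left-out libraries; 1 was higher with each of those 3 settings, and 0 to 1 over the left-out libraries. In vehicle cells 1 was higher in place of 0 with TMM within each fraction or library totals. The interaction passed for 15 members with no filter, 3 without both shallow sorafenib light libraries and 1 to 11 over the left-out libraries, in place of 8. The cause of these shifts was not tested. The summed shares outside mitochondrially encoded and ribosomal protein genes were 0.240% for sorafenib polysomes, 0.269% for vehicle polysomes, 0.594% for sorafenib light and 1.402% for vehicle light libraries.

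With the culture as a replicate block, 18 and 21 members stayed lower on polysomes in sorafenib and vehicle cells, and 9 passed the interaction. With the replicate number as a replicate block across treatments, 2 rose and 9 fell on polysomes, 18 fell in the light fraction and 7 passed the interaction. Depth limits SNHG9, SNHG21, SNHG22 and SNHG26 most: 9 of 24 tested members had under 10 counts in at least 1 library and 2 had 0 in one.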
